A study of Mus musculus with 18 samples.

Results

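Transcripts of 9 complement genes were followed in the retinal pigment epithelium (RPE) of *rd1* mice with and without overexpression of Nrf2. They comprised 6 activators (*C1qa*, *C1qb*, *C1qc*, *C3*, *C4b*, and *Cfb*) and 3 regulators (*Cfi*, *Cd59a*, and *Serping1*). The genes were chosen by name, with earlier results of these data known, and all 9 were found among the 47729 genes counted and passed the filter on low counts. The *rd1* (FVB/N) strain lacks Pde6b function and loses its rods early in life. At P40, the retina was lifted off, the eyecup was put into a stabilizing reagent that releases RPE cells, and RNA was purified from the supernatant, which gave 18 libraries from 9 mice by the sample labels. The methods of the study give fewer pairs of eyes for this comparison and do not say which, so all 9 labelled pairs were used. The control group was the 9 eyes that received AAV Best1-GFP alone. The Best1-Nrf2 group was the 9 fellow eyes, which received AAV Best1-Nrf2, carrying the human Nrf2 cDNA, together with AAV Best1-GFP. Every eye was therefore of *rd1* genotype and carried Best1-GFP, and both vectors used the human Best1 promoter, chosen for its activity in the RPE. By the methods of the study, the Best1-Nrf2 eyes also received a higher total dose of vector, with Best1-Nrf2 in another capsid than Best1-GFP. Effects of Nrf2 and of vector dose or capsid cannot be told apart in this design. The comparison asked whether transcripts of complement activators and regulators differed between the eyes.

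Complement is a cascade of plasma and tissue proteins that marks surfaces for removal by phagocytes. The classical pathway starts when C1q binds a target and its partner proteases C1r and C1s cleave C4 and C2, the alternative pathway amplifies cleavage of C3 with the help of factor B, and both routes converge on C3. Factor I inactivates C3b, C1 inhibitor blocks C1r and C1s, and CD59 stops assembly of the membrane attack complex. In the outer eye the RPE and choroid make several of these proteins, and microglia and macrophages are a known source of C1q. The FVB/N strain is deficient in C5, so the terminal steps cannot run to completion in these animals.

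The library labels were first examined through *Nfe2l2*, the mouse gene for Nrf2, at which reads of the human cDNA may also be counted. Its level was 89.7 ± 17.8 CPM (SD, n = 9 control eyes) and, after Best1-Nrf2, 453 ± 147 CPM (SD, n = 9 eyes), with no overlap between groups. CPM is the count of a gene relative to the TMM-scaled total of its library. Depth ranged from 18956748 to 49598700 counts, and the smallest library, control replicate 8, stood apart from the other controls for several complement genes named below. Markers of the RPE were present, with *Rpe65* at 810 to 3429 CPM in controls and 172 to 718 CPM with Best1-Nrf2, but *Best1* itself was at 3.95 CPM or less in every library. Markers of other cell types were found as well. In lists written for 7 cell types, 12 of 20 macrophage and microglia markers were higher with Best1-Nrf2 and none was lower (median log2 fold change, 1.42), whereas 10 of 13 rod and cone markers (median, -4.68), 5 of 14 RPE markers (median, -0.58), and 1 of 7 Müller glia markers (median, -0.20) were lower and none of these was higher. The Müller glia marker was *Rlbp1*, which is also among the 5 RPE markers. Of 7 fibroblast and sclera markers 1 was higher (median, 0.57), and neither the 8 endothelial (median, -0.14) nor the 5 red blood cell markers (median, 0.47) included a gene past the threshold. In such bulk RNA, more cells of a type and more RNA of a gene per cell cannot be told apart.

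Of the 9 complement genes, 4 rose with Best1-Nrf2 and none fell. The 4 were the 3 chains of C1q, each 3.55- to 3.82-fold, and the regulator *Cfi*, 2.76-fold, whereas *C3*, *C4b*, *Cfb*, *Cd59a*, and *Serping1* did not pass the test. By the quasi-likelihood F test of edgeR, with mouse as a block and an adjusted p of 0.05 as the threshold, 4.25% of the 18958 genes tested were called (3.12% higher and 1.13% lower), against 4 of 9 here, a choice of genes that was not independent of these data. The lower genes, 214 in number, fell to between 116 and 130 when mouse 1, 3, 5, 7, or 9 was left out. The median log2 fold change was 0.50 over the 9 genes and -0.03 over all genes tested. The plot of the 9 genes by library shows these patterns eye by eye.

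**Figure D1:**
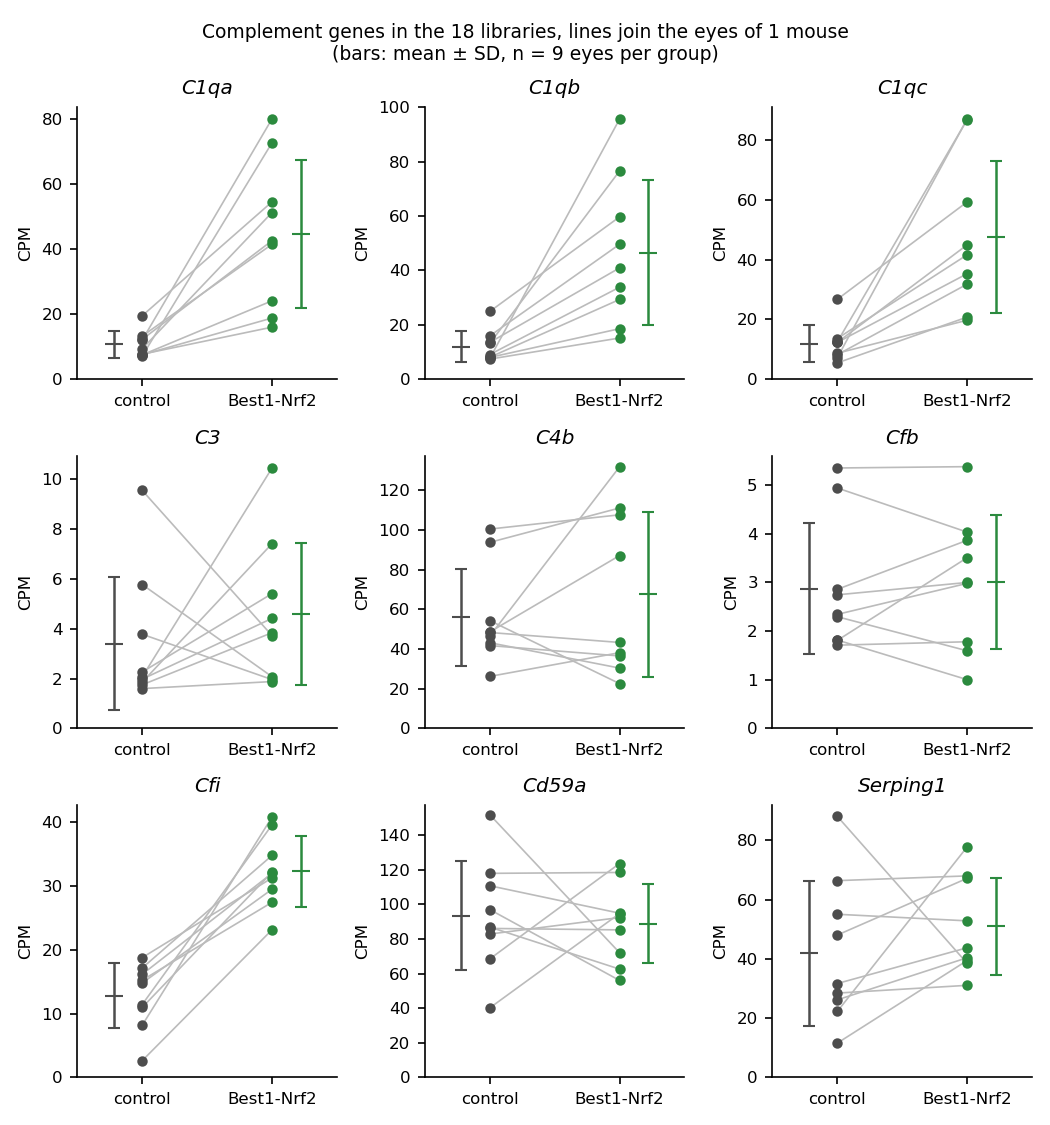
Level of each of the 9 complement genes in CPM (vertical axes, starting at 0) in control (grey) and Best1-Nrf2 (green) eyes, with a line joining the eyes of a mouse and bars for mean ± SD (n = 9 eyes per group). The lines of *C1qa*, *C1qb*, *C1qc*, and *Cfi* all run upward, whereas those of the other 5 genes cross.

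C1q is built from A, B, and C chains, which are encoded side by side. The 3 genes lie on the minus strand of chromosome 4 within 18.7 kb (GRCm38, 136880129 to 136898803), in the order *C1qb*, *C1qc*, *C1qa*. None of them shares 31-base words with another annotated gene. *C1qa* was at 7.18, 9.37, and 19.5 CPM (lowest, median, and highest of the 9 controls) and at 16.1, 42.6, and 80.0 CPM in the Best1-Nrf2 eyes. The groups met only at control replicate 5, which was above the lowest Best1-Nrf2 libraries, and each treated eye was above its fellow. In log2 units the rise was 1.93 ± 0.24 (SE, adjusted p = 5.68e-04 by edgeR, higher in 9 of 9 mice, by 1.05 to 3.33).

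*C1qb* was at 7.46, 9.12, and 24.9 CPM in controls and at 15.2, 40.9, and 95.6 CPM with Best1-Nrf2. Its log2 fold change was 1.83 ± 0.26 (SE, adjusted p = 0.00118 by edgeR, higher in 9 of 9 mice). *C1qc* was at 5.52, 12.4, and 26.7 CPM in controls and at 19.8, 41.6, and 86.9 CPM with Best1-Nrf2, or 1.93 ± 0.25 as log2 fold change (SE, adjusted p = 7.17e-04 by edgeR, higher in 9 of 9 mice). For both chains control replicate 5 was above the lowest Best1-Nrf2 eyes, as was control replicate 3 for *C1qb*, and the other controls were below all of them. Mouse 8 showed the largest within-mouse difference for all 3 chains, 3.33 (*C1qa*), 3.63 (*C1qb*), and 3.57 (*C1qc*) in log2 CPM, and mouse 7 the next. Without mouse 8 the log2 fold changes were 1.77, 1.63, and 1.74, each still past the threshold.

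The proportions of the chains differed little between the groups. Of the summed C1q level per kilobase of exon, *C1qa* made up 38.2% ± 4.30 in controls and 39.2% ± 3.40 with Best1-Nrf2, *C1qb* 39.8% ± 4.27 and 38.2% ± 3.77, and *C1qc* 21.98% ± 2.79 and 22.6% ± 2.62 (SD, n = 9 each). Each of these group differences in share was smaller than the spread between eyes of a group.

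The bases upstream of the start site are shown for the genes with an entry in the RefSeq promoter table (GRCm38.p6), which were 4 of the 9: *C1qb* and *C1qc*, which rose together, and *C3* and *Cd59a*, which did not pass the test. Sequences run 5′ to 3′ on the strand of the gene, up to 250 bases before the start. They end where transcription begins in either RefSeq or GENCODE, which leaves 99 bases for *C1qc*. Capitals mark matches, on either strand, to TGACNNNGC (the core of the antioxidant response element that Nrf2 binds), to GAGGAA (an ETS-type motif bound by PU.1, a factor of myeloid cells), and to GAAANNGAAA (an interferon-response type motif).
C1qb, chr4:136886201-136886450, minus strand: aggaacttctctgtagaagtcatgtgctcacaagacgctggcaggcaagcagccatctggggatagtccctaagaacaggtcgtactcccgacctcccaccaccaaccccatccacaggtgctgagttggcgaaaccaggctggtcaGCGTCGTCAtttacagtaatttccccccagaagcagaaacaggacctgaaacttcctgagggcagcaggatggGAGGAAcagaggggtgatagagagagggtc
C1qc, chr4:136893066-136893164, minus strand: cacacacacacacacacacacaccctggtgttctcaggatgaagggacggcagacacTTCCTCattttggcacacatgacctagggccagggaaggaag
C3, chr17:57228137-57228386, minus strand: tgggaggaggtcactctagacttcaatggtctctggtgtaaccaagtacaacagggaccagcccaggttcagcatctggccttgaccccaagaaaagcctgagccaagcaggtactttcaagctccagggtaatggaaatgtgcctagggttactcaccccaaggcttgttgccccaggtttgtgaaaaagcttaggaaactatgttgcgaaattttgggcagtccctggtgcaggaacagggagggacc
Cd59a, chr2:104095551-104095800, plus strand: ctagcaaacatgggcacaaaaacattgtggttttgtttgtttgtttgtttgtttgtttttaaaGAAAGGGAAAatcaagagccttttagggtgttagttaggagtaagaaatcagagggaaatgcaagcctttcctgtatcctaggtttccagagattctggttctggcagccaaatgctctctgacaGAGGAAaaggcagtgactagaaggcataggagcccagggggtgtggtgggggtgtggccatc
*C1qb* held 1 match to TGACNNNGC, at base -103 from the RefSeq start and in reverse orientation, and 1 to GAGGAA at base -30. *C1qc* held 1 match to GAGGAA, also reversed, at base -193 from the RefSeq start, which lies downstream of the end of its printed sequence, and the *C3* window held no match to any of the 3. *Cd59a* held 1 match to GAGGAA at base -62 and 1 to GAAANNGAAA at base -187. Over 32851 RefSeq windows of 300 bases (250 before and 50 after the start), 12.4% held TGACNNNGC, 28.3% GAGGAA, and 3.44% GAAANNGAAA, so single matches to the first and the second were common.

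Of the 4 genes of the C1 proteases, 3 were higher with Best1-Nrf2. The fourth, *C1s2*, was at 0.583 ± 0.304 CPM in controls and 1.24 ± 0.694 CPM with Best1-Nrf2 and did not pass the test (SD, n = 9 each, log2 fold change, 1.14 ± 0.45, SE, adjusted p = 0.271 by edgeR). In a list of 44 other complement genes, 23 passed the count filter, and 4 of these were higher, against 3.12% of all genes tested (median log2 fold change over the 23, 0.17). *C1ra*, which encodes the protease C1r, was at 7.07, 14.7, and 16.4 CPM (lowest, median, and highest) in controls and at 21.96, 60.1, and 74.6 CPM with Best1-Nrf2. The groups did not overlap, as for 1.17% of all genes tested (1.05% higher), and the log2 fold change was 1.83 ± 0.20 (SE, adjusted p = 2.16e-04 by edgeR, higher in 9 of 9 mice). Its paralog *C1rb* was far lower, at 0 to 1.53 CPM in controls and 1.91 to 5.51 CPM with Best1-Nrf2, and rose by 2.18 ± 0.43 in log2 units (SE, adjusted p = 0.0121 by edgeR). *C1s1*, which encodes C1s, was at 7.79 ± 4.26 CPM in controls and 22.4 ± 9.37 CPM in treated eyes (SD, 9 eyes each), so that the estimate was 1.62 ± 0.35 in log2 units (SE, adjusted p = 0.0187 by edgeR, higher in 8 of 9 mice). It lost its call when mouse 4, 5, 7, or 9 was left out, the log2 fold change then staying between 1.47 and 1.87 over all 9 leave-outs.

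C1r and C1s genes come as near copies in the mouse, and 59.6% of the 31-base words of *C1ra*, 71.4% of those of *C1rb*, and 47.6% of those of *C1s1* occur in other genes. How reads were divided within such a pair is therefore uncertain. Counts summed within a pair gave 1.84 ± 0.20 in log2 units for *C1ra* and *C1rb* (SE, adjusted p = 1.79e-04 by edgeR, higher in 9 of 9 mice) and 1.60 ± 0.34 for *C1s1* and *C1s2* (SE, adjusted p = 0.0187 by edgeR, higher in 8 of 9 mice).

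The components downstream of C1 that passed the count filter were *C4b*, *C4a*, *C2*, *C3*, *Cfb*, *Cfp*, and *C8g*, and none of these passed the test. Most genes of the terminal pathway were below the filter and were not part of this test. *C4b*, whose product is the substrate of C1s, was at 26.2, 48.4, and 101 CPM in controls (lowest, median, and highest) and at 22.6, 43.3, and 132 CPM with Best1-Nrf2. The ranges lay over each other, with 3 Best1-Nrf2 eyes above every control and 1 below every control. The log2 fold change was 0.12 ± 0.25 (SE, adjusted p = 0.925 by edgeR), and the 95% interval of the within-mouse difference, -0.49 to 0.74, contained 0. *C4b* was higher in 5 of 9 mice, and its log2 fold change was -0.04 without mouse 6. *C4b* and *C4a* share 48.3% of the words of *C4b*. *C4a* was at 1.86 ± 1.52 CPM in controls, and the summed counts gave 0.13 ± 0.23 (SE, adjusted p = 0.908 by edgeR). *C2*, the partner of C4 in the classical C3 convertase, was at 65.8 ± 23.3 and 72.4 ± 24.4 CPM (SD, n = 9 each, log2 fold change 0.17 ± 0.28, SE, adjusted p = 0.904 by edgeR).

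*C3*, the hub of the cascade, was at 1.60, 2.06, and 9.54 CPM in controls and at 1.88, 3.83, and 10.4 CPM with Best1-Nrf2. The highest control eyes were those of mice 2 and 7 (9.54 and 5.77 CPM) and the highest Best1-Nrf2 eyes those of mice 1 and 3 (10.4 and 7.40 CPM), so the high values came from different animals and the groups overlapped over most of their range. Its log2 fold change was 0.50 ± 0.47 (SE, adjusted p = 0.772 by edgeR, higher in 6 of 9 mice). Within mice it ran from -1.45 to 2.31, the 95% interval of the mean being -0.62 to 1.56, which contained both 0 and the change of *Cfi* (1.46).

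*Cfb* encodes factor B, the protease of the alternative C3 convertase. It was at 1.71, 2.34, and 5.35 CPM in controls and at 1.00, 3.00, and 5.38 CPM with Best1-Nrf2 (26 to 258 counts per library). With a 95% interval of -0.37 to 0.43, the log2 fold change was 0.03 ± 0.25 (SE, adjusted p = 0.983 by edgeR, higher in 6 of 9 mice). *Cfb* overlaps *Gm20547*, a gene model on the same strand that holds 75.5% of its words, so part of its reads may have been given to that model or to neither. *Gm20547* was at 0.384 ± 0.541 CPM in controls, and the summed counts gave a difference in log2 units of -0.03 ± 0.29 (SE, adjusted p = 0.986 by edgeR).

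**Figure D2:**
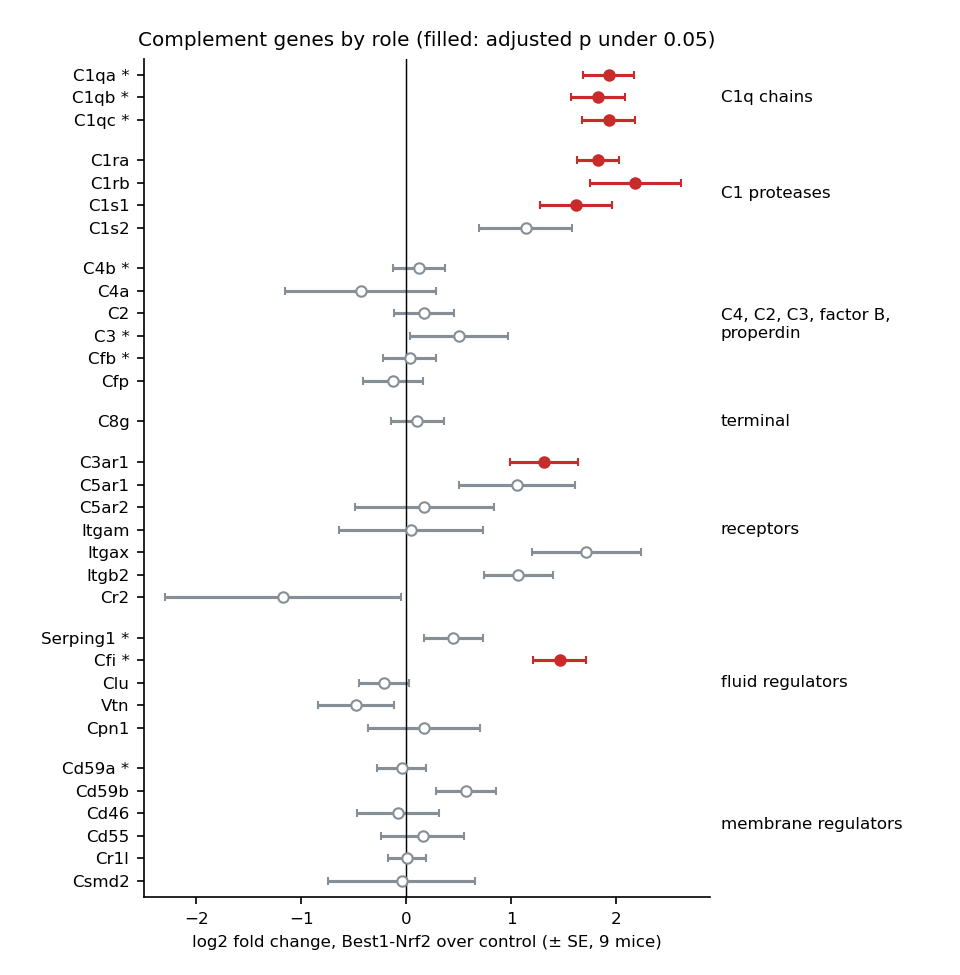
Log2 fold change of Best1-Nrf2 over control (horizontal axis, points with SE bars, 9 mice) for the 9 complement genes (marked with an asterisk) and 23 other complement genes, grouped by role. Filled red points passed an adjusted p of 0.05 and open points did not: the red points are the C1q chains, *C1ra*, *C1rb*, *C1s1*, *C3ar1*, and *Cfi*, all to the right of 0.

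Among the regulators, *Cfi* had the clearest separation between groups. It encodes factor I, the serine protease that cleaves C3b and C4b once a cofactor has bound them. *Cfi* was at 2.62, 14.8, and 18.8 CPM in controls (lowest, median, and highest) and at 23.1, 32.0, and 40.8 CPM with Best1-Nrf2. All 9 Best1-Nrf2 eyes were above all 9 control eyes, which was the case for no other of the 9 complement genes and for 1.05% of the genes tested. The rise was 1.46 ± 0.25 in log2 units (SE, adjusted p = 0.00519 by edgeR, higher in 9 of 9 mice, by 0.73 to 3.12). The lowest control eye, replicate 8, held 46 counts of *Cfi*, and without mouse 8 the log2 fold change was 1.28 (adjusted p = 0.00495 by edgeR).

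*Serping1* encodes C1 inhibitor, which inactivates the C1r and C1s proteases. It was at 11.6, 31.7, and 88.1 CPM in controls and at 31.1, 43.7, and 77.8 CPM with Best1-Nrf2, the controls being spread over the whole range and the treated eyes lying within it. The log2 fold change was 0.45 ± 0.28 (SE, adjusted p = 0.598 by edgeR, higher in 7 of 9 mice), with a 95% interval of -0.26 to 1.16. *Cd59a*, which encodes the membrane-anchored inhibitor of the attack complex, was at 40.1, 86.8, and 152 CPM in controls and at 56.0, 92.3, and 124 CPM with Best1-Nrf2. Its log2 fold change was -0.04 ± 0.23 (SE, adjusted p = 0.977 by edgeR), it was lower in 5 of 9 mice, and the 95% interval was -0.60 to 0.53. For both genes the interval left out a rise as large as that of *Cfi* (1.46). *Cd59a* shares 9.39% of its words with other genes, mostly its paralog *Cd59b*, and the counts of both genes together gave 0.02 ± 0.24 (SE, adjusted p = 0.988 by edgeR).

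Among the other regulators, 8 did not pass the test. *Clu* (clusterin, a fluid-phase inhibitor of the attack complex) was the most abundant complement gene, at 8765 ± 2660 CPM in controls and 7308 ± 1392 CPM with Best1-Nrf2 (SD, n = 9 each, log2 fold change, -0.21, adjusted p = 0.829 by edgeR). *Cr1l* (Crry, a membrane regulator of C3 convertases in rodents) was at 41.6 ± 9.84 and 42.8 ± 16.4 CPM (log2 fold change, 0.01, adjusted p = 0.996 by edgeR). Of 7 receptors tested, *C3ar1*, the receptor for the C3a fragment, passed the test alone, from 1.14 ± 0.511 to 2.79 ± 0.958 CPM (SD, n = 9 each, log2 fold change, 1.31 ± 0.32, SE, adjusted p = 0.0399 by edgeR, higher in 9 of 9 mice). It lost its call in 6 of the 9 leave-outs, with no count filter, and with upper-quartile scaling.

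Set against each other, the 6 activators had 3 genes higher and a median log2 fold change of 1.17, and the 3 regulators had 1 gene higher and a median of 0.45. Neither group held a gene that was lower. Mouse by mouse, the median within-mouse difference of the activators was above that of the regulators in 7 of 9 mice and below it in mice 3 and 4, the gap running from -0.22 in mouse 3 to 2.34 in mouse 2. The activators' median was carried by C1q, since the other activators were near the median of all genes except for *C3*. On the scale of CPM per kilobase, *C1qa* was at 0.238, 0.534, and 1.67 of *Serping1* in controls (lowest, median, and highest) and at 0.534, 2.98, and 4.12 with Best1-Nrf2, higher in 8 of 9 mice. *C3*, in contrast, was at 0.0402, 0.0777, and 0.263 of *Cfi* in controls and at 0.0207, 0.0529, and 0.153 with Best1-Nrf2, higher in 4 of 9 mice. Each ratio pairs a gene past the threshold with a gene that was not, so its direction follows from the fold changes above.

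**Figure D3:**
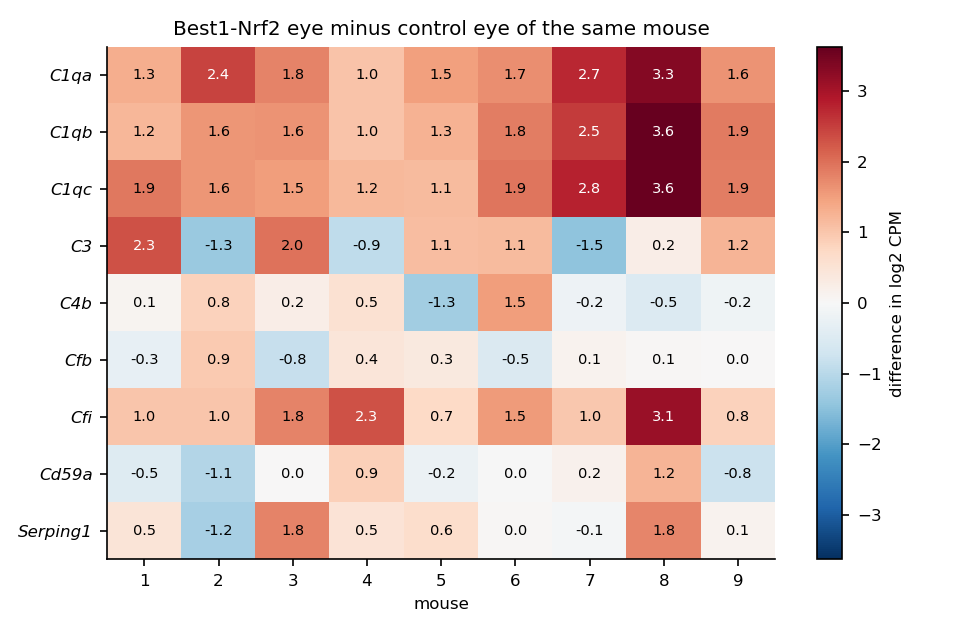
Difference in log2 CPM between the Best1-Nrf2 and the control eye (colour scale, value in each cell) for the 9 complement genes (rows) in each of the 9 mice (columns). The C1q and *Cfi* rows are red (higher with Best1-Nrf2) in every mouse, whereas the rows of *C3*, *C4b*, *Cfb*, *Cd59a*, and *Serping1* hold both colours.

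The order of levels between genes, per kilobase of exon, also differed between the eyes. In controls the highest was *Cd59a*, at 51.6 ± 17.4 CPM per kilobase, then *Serping1* (18.05 ± 10.5), *C1qb* (11.04 ± 5.29), *C1qa* (10.3 ± 3.91), *C4b* (9.82 ± 4.33), *C1qc* (6.18 ± 3.22), *Cfi* (5.77 ± 2.29), *Cfb* (1.02 ± 0.479), and *C3* (0.660 ± 0.519, all SD with n = 9). Neighbours in this order were within their spread of each other, except for *Cd59a* over *Serping1* and *Cfi* over *Cfb*, whose means ± SD did not meet. With Best1-Nrf2, *Cd59a* was still first (49.0 ± 12.7 CPM per kilobase), followed by *C1qa* (42.9 ± 21.7), *C1qb* (42.8 ± 24.6), *C1qc* (24.6 ± 13.1), *Serping1* (21.9 ± 7.01), *Cfi* (14.6 ± 2.51), *C4b* (11.9 ± 7.30), *Cfb* (1.07 ± 0.488), and *C3* (0.888 ± 0.553). There, only *C4b* and its neighbour *Cfb* were apart by more than their spread. *C3* and *Cfb* were the lowest of the 9 in both groups. Reads of *Cfb* and *C4b* may have been lost to genes that share their words, so their places in this order are uncertain.

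The C1q chains varied together with markers of macrophages and microglia. The summed level of the 20 markers was 211, 346, and 578 CPM in controls (lowest, median, and highest) and 319, 633, and 865 CPM with Best1-Nrf2, and their mean log2 CPM was higher in the treated eye of 9 of 9 mice, by 0.47 to 2.31. That of the fibroblast and sclera markers was also higher in 9 of 9 mice (0.19 to 1.75). That of the rod and cone markers was higher in 0 of 9 (-5.75 to -0.20). The defining microglial markers were detected in every library. *P2ry12* (log2 fold change, 2.45, adjusted p = 0.00308 by edgeR) and *Cx3cr1* (1.66, adjusted p = 0.00773 by edgeR) passed the test, whereas *Tmem119* (0.95, adjusted p = 0.135) and *Csf1r* (-0.97, adjusted p = 0.113), at 136 ± 122 CPM in controls and 59.6 ± 33.9 CPM with Best1-Nrf2, did not. No complement gene is in the list of 20. The complement receptor gene *Itgam*, also a marker of these cells, was therefore outside it (log2 fold change, 0.04, adjusted p = 0.952 by edgeR). With the mean log2 CPM of the 20 markers as a further term in the fit, none of the 9 genes passed the test (*C1qa*, 0.53, *C1qb*, 0.38, *C1qc*, 0.63, and *Cfi*, 0.98 in log2 units), and 21 genes in all did. With rod and cone markers as that term none of the 9 passed either (*C1qa*, 1.99, *C1qb*, 2.14, *C1qc*, 2.29, and *Cfi*, 2.25 in log2 units). The 5 genes without a call moved as well, *C3* being at 1.76 in the fit with macrophage markers and 0.52 in that with rod and cone markers, *C4b* at 0.37 and 0.93, *Cfb* at -0.08 and -0.35, *Cd59a* at -0.44 and 0.84, and *Serping1* at 0.30 and 0.73. Of the protease genes, *C1ra* was at 1.79 and 0.90, *C1s1* at 1.04 and 0.14, and *C1rb* at 1.12 and 2.11. The correlation with the group was 0.79 for the macrophage term and -0.89 for the rod and cone term, so neither can well be told apart from the group in 9 mice. The part of either cell type in the complement results was not tested.

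Over the 9 mice, the within-mouse difference of *C1qa* followed that of the marker list with a Pearson r of 0.977 (2-sided exact permutation test, adjusted p = 1.24e-04 over the 9 genes, raw p = 1.38e-05, Spearman rho 0.95, exact p = 3.53e-04, adjusted p = 0.00317). For *C1qb* r was 0.936 (exact p = 2.37e-04, adjusted p = 0.00107, rho 0.883, exact p = 0.00308, adjusted p = 0.0138), and for *C1qc* it was 0.863 (exact p = 0.00322, adjusted p = 0.00966, rho 0.633, exact p = 0.0760, adjusted p = 0.228). When mice 7 and 8, the farthest from the median of the markers, were left out, r was 0.923 for *C1qa* (exact test, adjusted p = 0.00893, rho 0.893, adjusted p = 0.111), 0.829 for *C1qb* (exact p = 0.0315, adjusted p = 0.142, rho 0.75, adjusted p = 0.298), and 0.370 for *C1qc* (exact p = 0.388, adjusted p = 0.639). The relation of *C1qc* therefore rested on these mice, and that of *C1qb* kept most of its r but missed the adjusted threshold. Leaving out mouse 7 or mouse 8 alone was enough for *C1qc* to miss it (r of 0.833 and 0.738, exact test, adjusted p = 0.0715 and 0.105). The rho of *C1qb* missed it when mouse 1, 4, 5, 7, or 8 was left out (0.833, exact test, adjusted p = 0.0653 to 0.0692). Its r passed in every such leave-out (exact test, adjusted p of at most 0.0096). None of the other 6 genes passed this test. *Cfi* had an r of 0.332 (exact p = 0.384, adjusted p = 0.691, rho 0.0833, exact p = 0.843, adjusted p = 0.912), *C3* of -0.420 (exact p = 0.259, adjusted p = 0.582, rho -0.417, exact p = 0.270, adjusted p = 0.607), and the remaining 4 genes lay between -0.144 and 0.273. The r of *Cfi* was -0.364 without mouse 8 and 0.611 without mouse 4, and those of *C4b*, *Cd59a*, and *Serping1* also changed sign without mouse 8. For *C3* the leave-outs ran from -0.703 (without mouse 4) to -0.244 (without mouse 7). The plot against the marker list shows the mice lined up for *C1qa* and scattered for *Cfi*, with mouse 4 low in markers and high in *Cfi*.

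**Figure D4:**
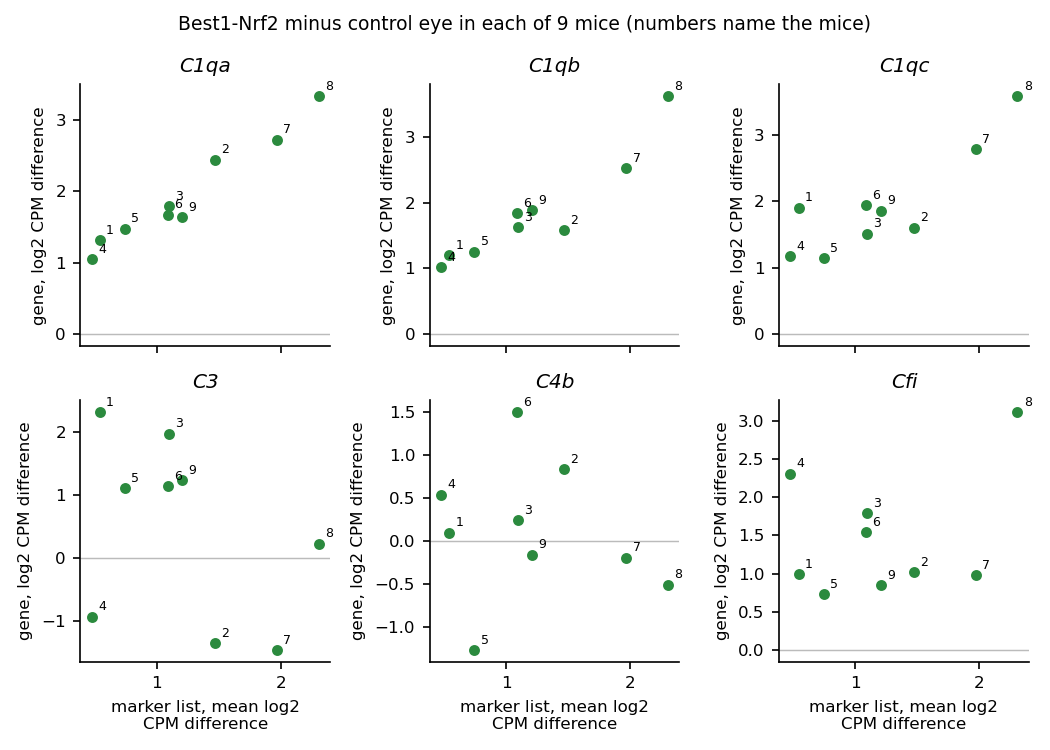
Difference between the Best1-Nrf2 and the control eye of each of 9 mice (points, numbered by mouse) in log2 CPM of a complement gene (vertical axes) and in mean log2 CPM of the 20 macrophage and microglia markers (horizontal axes). Points of *C1qa* lie close to a line (r = 0.977), those of *C1qc* do so mainly through mice 7 and 8, and those of *C3*, *C4b*, and *Cfi* do not.

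The genes most like each complement gene in level over the 18 libraries fell into different sets. Likeness was the Pearson correlation of log2 CPM among the 12370 genes whose log2 CPM averaged 2 or more, and as the libraries include both groups it reflects the group difference as well. The 3 closest to *C1qa* were *Trem2* (r = 0.967), *Fcgr3* (0.965), and *Ctss* (0.948), and those closest to *C1qb* were the same genes. *C1qc* was closest to *Trem2* (0.966), *Fcgr3* (0.945), and *Lyz2* (0.932). These are genes of phagocytes, and all 4 are in the marker list above. *Cfi* was closest to *Ush1c* (0.956), *B4galt6* (0.934), and *Epdr1* (0.932), none of which is in any of the marker lists, and each of which also rose with Best1-Nrf2 (log2 fold changes of 2.81, 1.31, and 1.51). *Cd59a* was closest to *Phyh* (0.945), *Rsu1* (0.927), and *Msrb2* (0.925), *C4b* to *Polr2a* (0.896), *Stox2* (0.876), and *Gon4l* (0.863), and *Cfb* to *6030458C11Rik* (0.936), *Mknk1* (0.918), and *Copa* (0.917). *Serping1* was closest to *Itm2a* (0.833), *Cdh11* (0.832), and *Ddah2* (0.812). *C3* had the weakest neighbours, *Kcnk1* (0.771), *Ltbp2* (0.704), and *Col14a1* (0.698). No gene named here for *C3*, *C4b*, *Cfb*, *Cd59a*, or *Serping1* passed the test between the eyes.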

How the data were processed

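RNA from the supernatant of *rd1* eyecups was amplified with a low-input kit and sequenced in separate runs, which the labels do not assign to libraries. The authors used STAR to align reads to mm10, with transcripts from Ensembl, and featureCounts to count them, and also quantified transcripts with Salmon (version 0.8.1 in the submitters' processing notes). The deposited table holds expected counts per gene, as whole numbers not scaled between libraries. It does not say which counter made it. Total counts were 18956748 to 49598700 per library. Amplified reads are not independent molecules, so counting precision covers counting error only.

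The labels give both eyes of a mouse the same individual number, which was used as a block. The correlation between eyes of a mouse, after group means were removed, had a median of -0.00095 (range, -0.373 to 0.644). Of 9 control libraries, 2 correlated best with the treated eye of their own mouse. Within-mouse differences, their intervals and correlations, and counts of mice rest on this labelled pairing. The number of animals rests on these labels, and the methods of the study give a smaller number of pairs at P40. All 47729 genes were fitted in R 4.3.3 with edgeR 4.0.16 (filterByExpr, TMM, quasi-likelihood F test, Benjamini-Hochberg over 18958 genes, threshold 0.05), and log2 CPM used a prior count of 2. Standard errors came from the F statistic, and 95% intervals from the 9 within-mouse differences. Symbols, positions and exon lengths came from GENCODE mouse release M21 on GRCm38, another release than the authors used. Symbols were found for 47224 gene IDs. Shared words are 31-base words of a gene that occur in another annotated gene, in percent.

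The 9 genes, the gene lists and the motifs were chosen with earlier results of these data known. Named were the 9 genes, *Nfe2l2*, other complement genes past the threshold and the 3 most abundant that were not, the 3 genes most like each of the 9, and, of the marker lists, defining markers. By mean CPM over both groups, the most abundant markers were *Ttr* (RPE), *Pde6h* (rod and cone), *Apoe* (Müller glia), *Fbln1* (fibroblast and sclera), *Egfl7* (endothelial), and *Hba-a1* (red blood cell). Alternatives were other scalings and count filters, DESeq2 1.42.0, limma 3.58.1 (voom), no block, marker covariates, an adjusted p of 0.1, and leaving out each mouse. A complement gene and a marker gene are not reported here. The methods were tested on simulated data. No library was left out.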

Additional observations from a re-analysis of the deposited data

Results flagged for a closer look

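Of 34 sets of 9 eyes (17 named genes in each group), 6 held an eye farther from the others than Dixon's 95% critical value allows, where chance gives 1.7. Control replicate 8, the smallest library, accounted for 5 of the 6. It was the lowest control for *Cfi* (log2 CPM of 1.42, next 3.04, 46 counts), for *C1rb* (-4.23, next -0.46, no counts), for *Clu* (11.8, next 12.8), and for *C2* (4.49, next 5.72), and the highest for *Nfe2l2* (7.06, next 6.60). The sixth was Best1-Nrf2 replicate 3, the lowest of its group for *C3ar1* (0.0781, next 1.04, 26 counts). With mouse 8 left out, the log2 fold changes were 1.28 for *Cfi*, 1.94 for *C1rb*, -0.30 for *Clu*, 0.00 for *C2*, and 2.44 for *Nfe2l2*, and the calls of these 5 genes were the same. With mouse 3 left out, *C3ar1* still passed the test. Control replicate 8 also had the lowest mean log2 CPM of RPE markers among the controls (8.28, next 9.38). What set it apart was not tested.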

How the results depend on the processing

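The counts of 4 complement genes higher and 0 lower among the 9 were the same without the replicate block (742 genes called in all, 647 of them shared with the 806), with RLE or upper-quartile scaling, DESeq2, voom, either count filter, an adjusted p of 0.1, and in all 9 leave-outs. They were not the same with a marker covariate. With the mean log2 CPM of macrophage markers as covariate (correlation with group, 0.79), 21 genes were called in all, 0 of the 9 and 0 of the other complement genes, with *C1qa* at 0.53, *C1qb* at 0.38, *C1qc* at 0.63, and *Cfi* at 0.98. With rod and cone markers (correlation, -0.89), 10 genes were called in all, again 0 in each complement count, with *C1qa* at 1.99, *C1qb* at 2.14, *C1qc* at 2.29, and *Cfi* at 2.25. Of the other complement genes, *C1ra* was at 1.79 and 0.90 with the macrophage and the photoreceptor covariate, *C1rb* at 1.12 and 2.11, *C1s1* at 1.04 and 0.14, and *C3ar1* at 1.37 and 1.30. DESeq2 called 1478 and voom 1426 genes, which included 806 and 802 of those called. The cause was not tested. Other complement genes higher, 4 in the main fit, were 2 to 5 over the leave-outs (2 without mouse 5, 7, or 9). They were 6 with DESeq2, 6 with voom, 3 with upper-quartile scaling, and 3 with at least 10 counts per library. Values that changed sign were all of genes that did not pass the test. These were *Cfb* (-0.00881 with upper-quartile scaling, -0.0758 and -0.349 with the macrophage and photoreceptor covariates, -0.0806 to 0.175 over the leave-outs), *C4b* (-0.0447 to 0.294 over the leave-outs), *Cd59a* (0.837 with the photoreceptor covariate, -0.194 to 0.0896), *Clu* (0.33 with that covariate), *C2* (-0.53 and -0.37 with the covariates), and *Cr1l* (-0.0356 with upper-quartile scaling, -0.0124 with at least 10 counts per library, -0.0471 with the photoreceptor covariate, -0.0591 to 0.127 over the leave-outs). Of 305 values of named genes, 254 kept direction and side of the threshold, 30 kept direction alone, and 21 changed sign. The stricter count filter removed *C1rb*, which has no value there. *Cfb*, *C1rb*, and *C3ar1* held at most 258, 214, and 186 counts in a library, which limits their precision.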

Other observations

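Of the 44 other complement genes, 21 did not pass the count filter. One of them, *C9*, which encodes the pore-forming protein of the membrane attack complex, was singled out after its values were seen. It held 0 to 4 counts in control libraries (11 in all) and 9 to 56 counts in Best1-Nrf2 libraries (244 in all), with every Best1-Nrf2 eye above every control eye. In a fit with no count filter, its log2 fold change was 4.44 (adjusted p = 7.29e-04 by edgeR over 35910 genes; higher in 9 of 9 mice), a value that depends on the prior count at such levels. None of the other 18 genes below the filter that had a count passed this fit (lowest adjusted p, 0.598), among them *C6*, *C7*, *C8a*, and *C8b*, which encode the other parts of the attack complex, with at most 25 counts in any library. *Hc*, the gene for C5, held 0 to 87 counts.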
